A study of Mus musculus with 5 samples.

Results

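Chemokines and chemokine receptors were followed in leukocytes of mouse lung after irradiation of MC38 tumours. The members were the rows of the deposited table whose symbol begins as a chemokine (Ccl, Cxcl, Xcl1, Cx3cl1) or a chemokine receptor (Ccr, Cxcr, Cx3cr1, Xcr1, Ackr, Ccrl2). The rule found 41 of 14462 rows: 22 chemokines and 19 receptors. MC38 is a mouse cell line derived from a colon adenocarcinoma, and the labels give the tumours of every library, control libraries included, as MC38/MC38. The control group (ctrl) had 3 libraries and the irradiated group (IR) had 2. Lungs were taken 3 days after irradiation, and cells carrying CD45, a surface protein of nearly all leukocytes, were sorted from the cell suspension. The sources used here do not give the strain, sex or age of the mice, nor the radiation dose. Nothing in the labels says whether libraries came from separate mice, so the p-values reflect only the spread among these 5 samples, and that spread may be technical.

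Chemokines are small secreted proteins that steer moving leukocytes. They are classed by the spacing of their first cysteines into CC, CXC, C and CX3C types, and each binds 1 or more receptors of the G protein-coupled class. CXCR2 draws neutrophils to CXC chemokines that carry a glutamate-leucine-arginine motif, CCR2 draws classical monocytes, CCR7 and CXCR5 position lymphocytes and dendritic cells in lymphoid tissue, and atypical receptors bind chemokines or other ligands without the usual G protein signal. In lung these signals govern both the resting pool of leukocytes held in small vessels and the entry of neutrophils and monocytes in inflammation.

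The values are read counts per gene that the authors scaled between libraries, called scaled read counts here. Their totals ran from 7232126 to 8414753 per library, and the 41 members together took 0.406%, 0.425% and 0.547% of the total in ctrl and 0.581% and 0.746% in IR. IR replicate 2 stood apart from the other libraries on the first principal component of all genes tested (131.5, against -51.9 to -30.53 in ctrl and -6.001 in IR replicate 1), so results are given with and without it where it decides them. Ptprc, which encodes CD45, had scaled read counts of 15842, 15543 and 15788 in ctrl and 17369 and 27247 in IR. Markers of several cell types differed between the groups. The summed level of 14 mature neutrophil markers was 31470 to 56036 in ctrl and 76510 and 149762 in IR replicates 1 and 2. That of 10 T cell markers was 5110 to 5784 against 3440 and 2879, and that of 8 B cell markers was 5963 to 10411 against 6085 and 4787. For 14 lung epithelial markers, which the sort should remove, the sum was 23242 to 27362 in ctrl and 118523 and 57535 in IR. Most of that sum was Scgb1a1, a secretory product of club cells (18790 to 23115 in ctrl, 103972 and 50989 in IR). Without it the sums were 6844, 4247 and 3914 in ctrl and 14551 and 6546 in IR. IR replicate 2 thus lay within the ctrl range. Of all 14 epithelial markers, 11 had a positive log2 fold change and 3 a negative one, with a median of 0.83. Scgb3a2 was 554, 638.5 and 550 in ctrl and 4236 and 2496.5 in IR (log2 fold change 2.49, limma adjusted p = 1.66e-06). Sftpb was 990, 773 and 616 in ctrl and 3586 and 1362 in IR (1.505, limma adjusted p = 0.0723). Epcam, the general epithelial marker, went the other way, with a log2 fold change of -1.45 (limma adjusted p = 0.161). Of 10 alveolar macrophage markers, 6 had both IR libraries below ctrl and 0 were called, with a median log2 fold change of -0.58. None of the markers found in the table on these 5 lists was at 0 in all libraries.

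Of the 41 members, 38 had at least 10 scaled read counts in at least 2 of the 5 libraries and were tested. The other 3 were Ccl7, Ccl25 and Cxcl12. Ccl7, a monocyte attractant, lay between 0 and 8.4 in every library. Ccl25, a ligand of CCR9, reached 26.2 in ctrl replicate 1 and lay between 0 and 7.5 in the rest. Cxcl12, the stromal ligand of CXCR4, reached 9.3 in IR replicate 1 and was listed at 0 in ctrl replicate 2 and IR replicate 2.

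Cxcr2, the main chemokine receptor of neutrophils, and Ccrl2, an atypical receptor, rose in IR against ctrl, and 0 members fell. The 2 called members were 5.26% of the 38, where 1.5% of all 12777 genes tested were called (limma, adjusted p under 0.05 over all genes); in the higher direction the share of all genes was 1.14%, and in the lower direction 0.36%. With an unadjusted p under 0.05 there were 11 of 38 members (28.9%), beside 15% of all genes. In 14 of 38 members (36.8%) the IR and ctrl libraries did not overlap, beside 31.5% of all genes. Of these 14, 11 were higher in IR (28.9% of members, 15.2% of all genes) and 3 were lower (7.89% of members, 16.3% of all genes). A positive log2 fold change was found in 22 of 38 members (57.9%), beside 46.8% of all genes. The median log2 fold change was 0.25 over the 38 members and -0.05 over all genes tested. It was 0.30 for the 19 chemokines tested and 0.19 for the 19 receptors. The counts of calls rest on a few libraries: 0 members were called without IR replicate 2 (10 had an unadjusted p under 0.05) and 6 without IR replicate 1, and the member median turned to -0.05 without ctrl replicate 2.

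**Figure D1:**
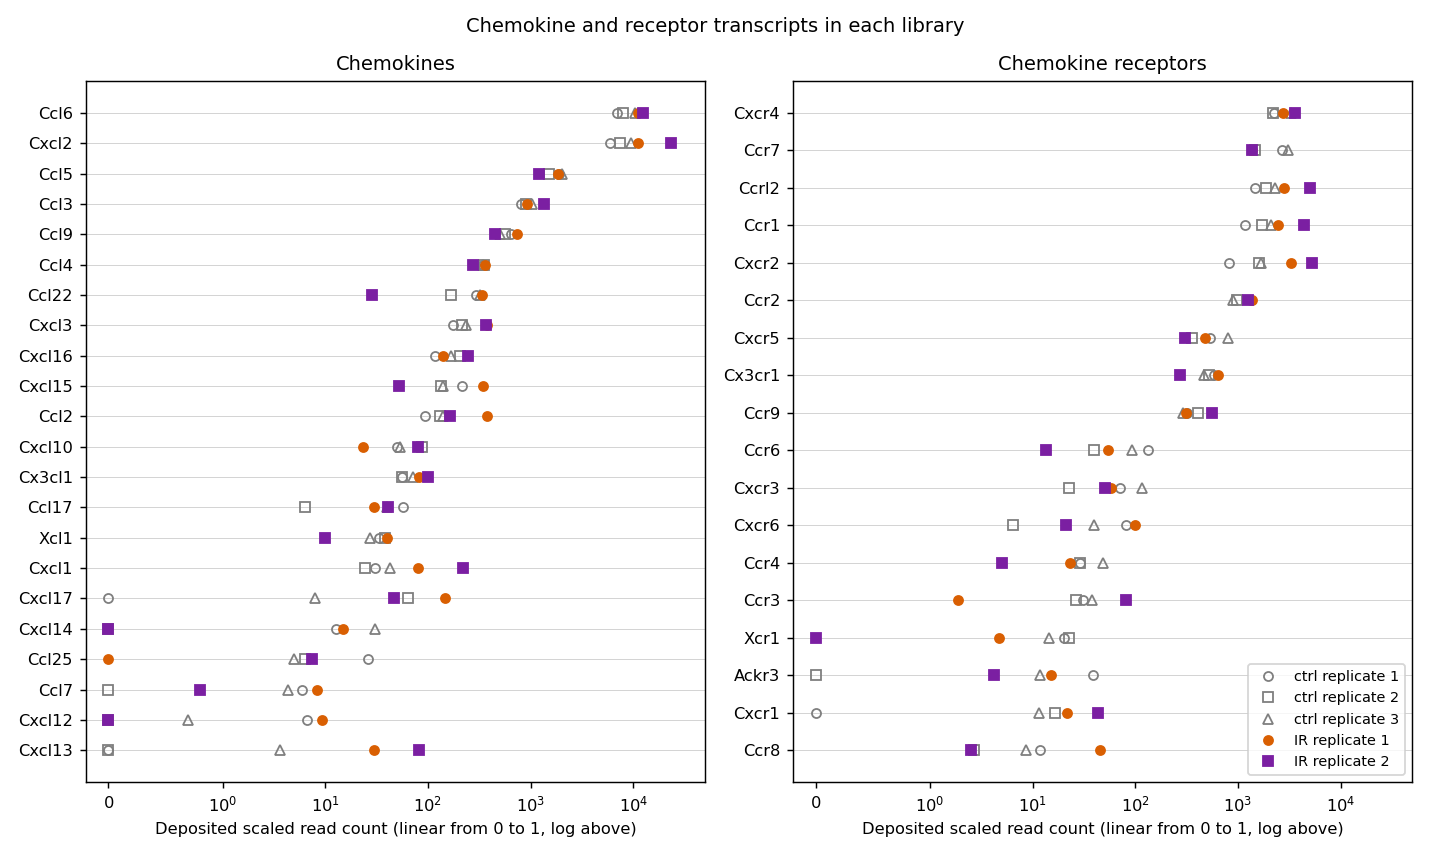
Scaled read count (horizontal axis, linear from 0 to 1 and logarithmic above) of 40 of the 41 members in each library, with chemokines on the left and receptors on the right, ordered by the ctrl mean. Open grey symbols are the 3 ctrl libraries and filled symbols the 2 IR libraries. Cxcl2 reached 23324 in IR replicate 2, and Cxcr2 lay at 3277 and 5215 in IR, above all ctrl libraries.

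**Figure D2:**
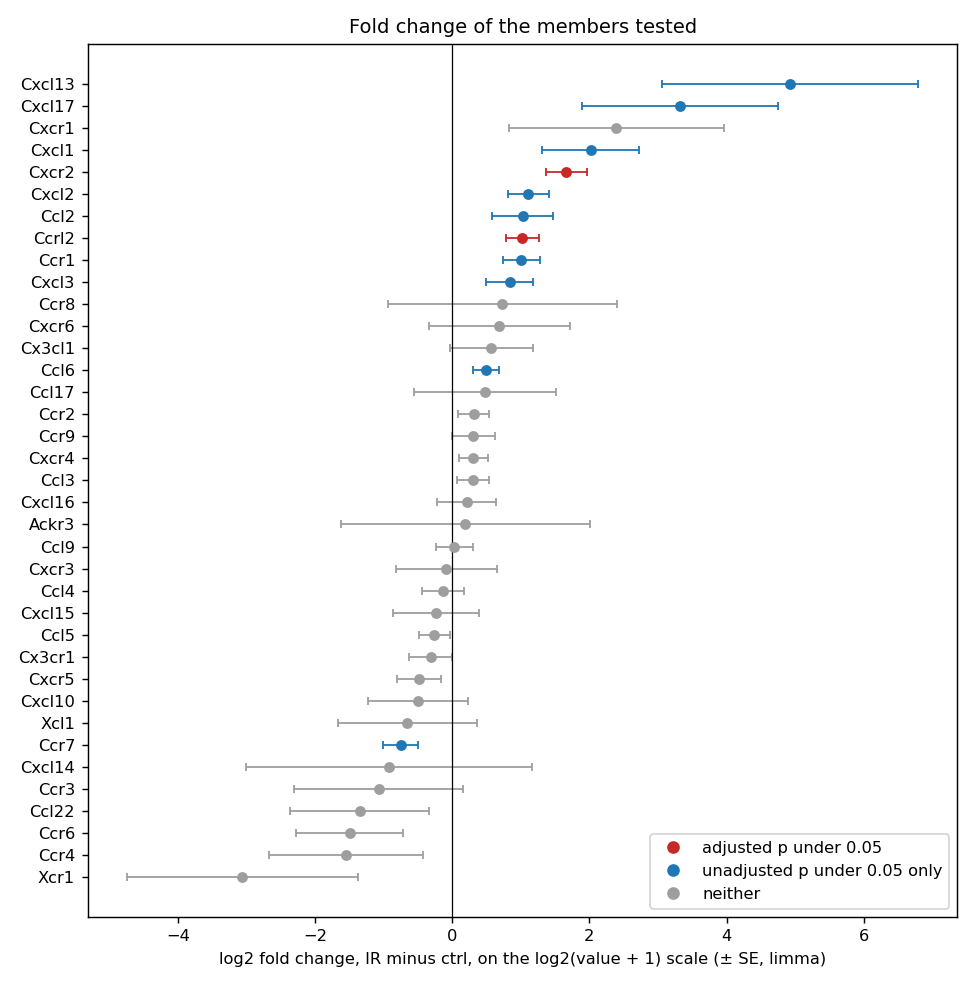
Log2 fold change of IR against ctrl (horizontal axis, on the log2(value + 1) scale, with its standard error from limma) for 37 of the 38 members tested, in order of size. Red marks the 2 members with an adjusted p under 0.05 (Cxcr2 and Ccrl2), blue the 9 others with an unadjusted p under 0.05, and grey the rest. Members at the ends of the order, such as Cxcl13 and Xcr1, have wide errors.

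Cxcr2, the receptor for neutrophil-attracting CXC chemokines (chromosome 1, 74153989 to 74161246), had scaled read counts of 824, 1611 and 1674 in ctrl and 3277 and 5215 in IR. Both IR libraries were above all ctrl libraries, and ctrl replicate 1 was the lowest. The ctrl mean was 1369 ± 473.5 (SD, n = 3), and that of IR was 4246 ± 1370 (SD, n = 2). On the log2(value + 1) scale Cxcr2 rose by 1.66 ± 0.30 (SE, adjusted p = 0.0202 by limma). In a bulk library, fewer or more cells of a type and less or more RNA per cell cannot be told apart. Cxcr1, the neighbouring gene for the companion receptor, was low: it was listed at 0 in ctrl replicate 1, was 16.4 and 11.6 in the other ctrl libraries, and was 21.5 and 43.7 in IR. Its IR libraries lay above those of ctrl, and it did not pass (log2 fold change 2.40 ± 1.57, SE; limma adjusted p = 0.502). Cxcr2 passed without any one ctrl library and without IR replicate 1, and missed the threshold when IR replicate 2 was left out (limma adjusted p = 0.115), with array weights (0.0772) or with no mean trend (0.476).

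Ccrl2, an atypical receptor that binds and presents the attractant chemerin (chromosome 9, 111054486 to 111057519), had scaled read counts of 1469, 1871 and 2319 in ctrl and 2804 and 5062 in IR. Both IR libraries were above ctrl, IR replicate 2 by far. Ccrl2 rose by 1.02 ± 0.24 on the log2 scale (SE, adjusted p = 0.0391 by limma). It passed without IR replicate 1 (1.45, limma adjusted p = 0.00158) and did not pass without any other one library (0.0504 to 0.344), nor with robust estimation off (0.0560) or with no mean trend (0.519). Ackr3, an atypical scavenging receptor of CXCL12, was low and uneven, at 39, 0 and 11.7 in ctrl and 15 and 4.2 in IR (log2 fold change 0.19 ± 1.81, SE; limma adjusted p = 0.972).

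Ccr1, a receptor of neutrophils and monocytes for several CC chemokines (chromosome 9, 123962124 to 123968692), was next in order of p. Its scaled read counts were 1166, 1730 and 2118 in ctrl and 2433 and 4393 in IR, so that the groups did not overlap. It missed the threshold at a log2 fold change of 1.01 ± 0.27 (SE, adjusted p = 0.0741 by limma). It passed with a pseudocount of 10 (limma adjusted p = 0.0406). Its log2 fold change was 1.44 without IR replicate 1 and 0.58 without IR replicate 2.

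The neutrophil-attracting CXC ligands were higher in both IR libraries, without passing the test one by one. Cxcl1, Cxcl2 and Cxcl3 encode ligands of CXCR2, and their genes lie on chromosome 5 with Cxcl15 between Cxcl3 and Cxcl1. Cxcl2 (chromosome 5, 90903871 to 90905938) had scaled read counts of 5865, 7431 and 9564 in ctrl and 11154 and 23324 in IR (log2 fold change 1.11 ± 0.30, SE; adjusted p = 0.107 by limma). It passed without ctrl replicate 3 (limma adjusted p = 0.0368) and not without ctrl replicate 1 (0.258) or ctrl replicate 2 (0.1885). The log2 fold change of Cxcl2 was 1.64 without IR replicate 1 and 0.58 without IR replicate 2. Cxcl1 (chromosome 5, 90891241 to 90893115) was far lower, at 30.4, 24.6 and 42.3 in ctrl and 79.4 and 217 in IR (log2 fold change 2.02 ± 0.71, SE; limma adjusted p = 0.164). Its log2 fold change was 2.74 without IR replicate 1 and 1.30 without IR replicate 2. Cxcl3 (chromosome 5, 90786103 to 90789600) was the evenest in IR, at 174, 216.5 and 234 in ctrl and 373 and 366.5 in IR (log2 fold change 0.84 ± 0.34, SE; limma adjusted p = 0.238). In all 3 genes the groups did not overlap. Cxcl15, called lungkine and made by airway epithelium, differed from its neighbours: with 212, 135 and 139 in ctrl, its IR libraries lay on opposite sides, at 346 in replicate 1 and 52.1 in replicate 2 (log2 fold change -0.23 ± 0.63, SE; limma adjusted p = 0.901).

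The sequences before the start sites of these 4 neighbours are shown, with 1 string marked that 3 of them share. The windows are the 250 bases before the RefSeq start (build GRCm38.p6, the assembly that mm10 corresponds to), written 5′ to 3′ on the strand of the gene. RefSeq windows were found for 32 of the 41 members. The windows of Cxcl1, Cxcl2, Cxcl3 and Cxcl15 are chr5:90890995-90891244, chr5:90903649-90903898, chr5:90785851-90786100 and chr5:90794284-90794533, all on the plus strand. The ends of the Cxcl1 and Cxcl2 windows lie within the GENCODE genes. Capitals mark GGGAATTTCCC, the longest string of letters that the Cxcl1, Cxcl2 and Cxcl3 windows have in common.
Cxcl1: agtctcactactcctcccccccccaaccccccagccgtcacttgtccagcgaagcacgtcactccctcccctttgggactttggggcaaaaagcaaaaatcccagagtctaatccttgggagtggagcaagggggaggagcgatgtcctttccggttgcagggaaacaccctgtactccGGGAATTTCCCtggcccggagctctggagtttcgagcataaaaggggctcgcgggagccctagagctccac
Cxcl2: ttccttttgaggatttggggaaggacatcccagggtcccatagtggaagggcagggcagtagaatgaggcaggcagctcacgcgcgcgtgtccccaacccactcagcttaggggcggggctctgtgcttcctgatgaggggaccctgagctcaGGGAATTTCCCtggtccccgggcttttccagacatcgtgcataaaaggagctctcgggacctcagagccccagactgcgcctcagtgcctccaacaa
Cxcl3: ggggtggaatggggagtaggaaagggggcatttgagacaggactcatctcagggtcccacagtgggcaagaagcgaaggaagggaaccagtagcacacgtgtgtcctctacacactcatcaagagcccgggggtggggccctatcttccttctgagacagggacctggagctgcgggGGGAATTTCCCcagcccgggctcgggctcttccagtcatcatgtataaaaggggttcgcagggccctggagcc
Cxcl15: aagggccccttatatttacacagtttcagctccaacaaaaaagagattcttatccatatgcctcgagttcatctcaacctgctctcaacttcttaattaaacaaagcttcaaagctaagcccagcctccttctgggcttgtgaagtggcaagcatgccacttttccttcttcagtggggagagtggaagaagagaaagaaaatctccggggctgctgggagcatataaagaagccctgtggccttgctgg

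The shared string has 11 bases, and it begins 71, 97 and 73 bases before the start of Cxcl1, Cxcl2 and Cxcl3. It has the form of a kB site, the kind of sequence that NF-kB proteins bind. On either strand it was in 14 of 32851 RefSeq windows of that length (0.0426%), and among the 32 member genes in these 3 alone. The Cxcl15 window did not hold it, which says only that these letters are not in that window. The string was chosen because these 3 windows share it, so its low share among all windows gives no support for a role. Whether it acts in these cells was not tested.

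Cxcr2, Ccrl2, Ccr1 and the CXCR2 ligand genes were also set against the neutrophil markers of the same library. The marker sum was itself higher in IR, so a gene that rose less than the sum falls below ctrl by this measure. Ccl6 (22.0%, 18.6% and 18.6% in ctrl, 14.4% and 8.22% in IR) did so too. So did Cxcr4 (7.14%, 5.25% and 5.87% in ctrl, 3.57% and 2.41% in IR). Cxcr2 stood at 2.62%, 3.82% and 2.99% of the summed level of the 14 neutrophil markers in ctrl and at 4.28% and 3.48% in IR, so that IR replicate 2 fell within the ctrl range. Ccrl2 stood at 4.67%, 4.43% and 4.14% in ctrl and at 3.67% and 3.38% in IR. For Ccr1 the shares were 3.71%, 4.10% and 3.78% against 3.18% and 2.93%, and for Cxcl2 18.6%, 17.6% and 17.1% against 14.6% and 15.6%. In these 3 genes both IR libraries lay below every ctrl library once divided by the sum of all 14 markers. Without S100a9, the most abundant marker, the sums were 20402, 28432 and 38333 in ctrl and 51760 and 92277 in IR. Divided by these sums, Ccrl2 and Ccr1 stayed below ctrl in both IR libraries. Cxcl2 did so in IR replicate 1 only, and its IR replicate 2 fell within the ctrl range. Of the sum of all 14 markers, Cxcl3 stood at 0.553%, 0.513% and 0.418% against 0.488% and 0.245%. Cxcl1 stood at 0.0966%, 0.0583% and 0.0755% against 0.104% and 0.145%, above ctrl in both IR libraries. The part of neutrophil number in the values of these members was not tested beyond these ratios. The marker list holds no member.

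**Figure D3:**
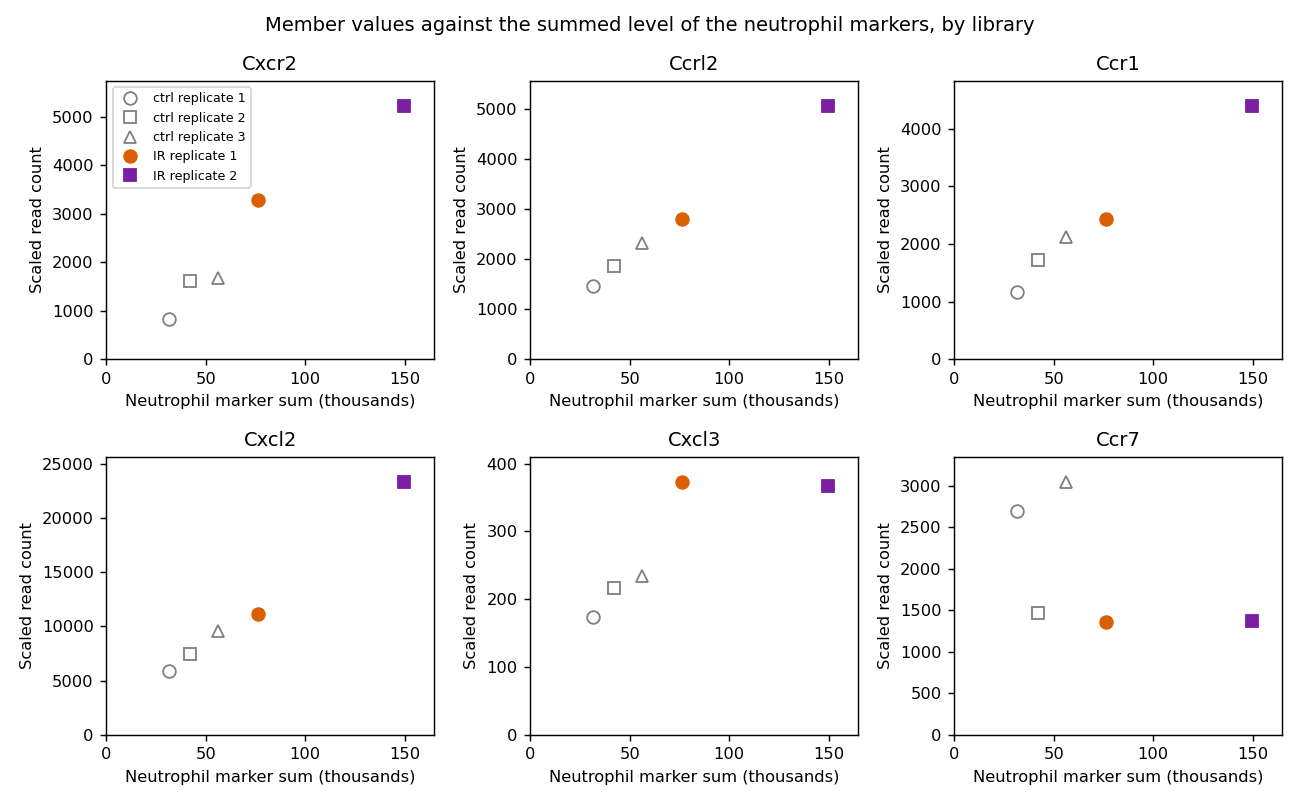
Scaled read count of 6 members (vertical axes, from 0) against the summed scaled read count of 14 neutrophil markers, in units of 1000 (horizontal axes), 1 point per library. Open grey symbols are ctrl and filled symbols IR. Cxcr2, Ccrl2, Ccr1 and Cxcl2 follow the order of the marker sum in all 5 libraries, and Ccr7 is lower in both IR libraries.

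CC ligands of CCR1 and related receptors were among the most abundant members, and none was called. Of the 5 measured, 0 passed the test, and the median log2 fold change was 0.03. Ccl6, a CC chemokine of mouse myeloid cells (chromosome 11, 83587882 to 83593087), had scaled read counts of 6909, 7845 and 10418 in ctrl and 10992 and 12317 in IR. The groups did not overlap, though the highest ctrl library came close to IR replicate 1 (log2 fold change 0.49 ± 0.19, SE; limma adjusted p = 0.214). Ccl6 overlaps the gene E230016K23Rik on the opposite strand, and the strand setting of the counting is not given in the sources used here. Ccl5, a chemokine of T and NK cells, was 1897, 1502 and 2018 in ctrl and 1850 and 1210 in IR, with only IR replicate 2 below ctrl (log2 fold change -0.26 ± 0.22, SE; limma adjusted p = 0.628). Ccl3, which macrophages and neutrophils secrete, was 804, 905 and 1021 against 916 and 1353 (log2 fold change 0.30 ± 0.23, SE; adjusted p = 0.589 by limma). Ccl4, its close relative, was the steadiest member in ctrl, at 340, 350 and 343, and was 359 and 276 in IR. Ccl9, another CC chemokine of mouse myeloid cells, was 637, 556 and 504 in ctrl, and its IR libraries lay on either side of them at 737 and 450.

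Among ligands of monocyte receptors, Ccl2 and Cx3cl1 had both IR libraries above ctrl, and neither passed the test. Ccl2, the main ligand of CCR2 (chromosome 11, 82035571 to 82037453), had scaled read counts of 94.6, 131 and 141 in ctrl and 374 and 162 in IR. Both IR libraries were above ctrl, IR replicate 2 by little (log2 fold change 1.03 ± 0.45, SE; limma adjusted p = 0.281). Ccr2, which brings classical monocytes out of the marrow, was 1337, 968 and 893 in ctrl and 1369 and 1249 in IR, with overlap (log2 fold change 0.32 ± 0.23, SE; limma adjusted p = 0.542). Beside it, the summed level of 7 other classical monocyte markers was 26525 to 30768 in ctrl and 40907 and 39263 in IR. Cx3cr1, the receptor of patrolling monocytes, was 584, 519 and 465 in ctrl and 644 and 273 in IR, the extremes of the 5 libraries both lying in IR. Its ligand gene Cx3cl1, which encodes a membrane-bound chemokine of endothelium and epithelium, was 55.8, 55.7 and 72.2 in ctrl and 82.3 and 100 in IR (log2 fold change 0.57 ± 0.60, SE; limma adjusted p = 0.703). Ccr3, the eosinophil receptor for eotaxins, was 31.3, 26.5 and 37.9 in ctrl and 1.9 and 81.6 in IR, so that the IR libraries lay on opposite sides of ctrl (log2 fold change -1.07 ± 1.23, SE; limma adjusted p = 0.730).

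Receptors of lymphocytes and dendritic cells had a negative median. Of 10 tested, 0 passed, 6 had a negative log2 fold change and 4 a positive one, and the median was -0.28. In 3 of them, Ccr7, Ccr4 and Xcr1, both IR libraries lay below ctrl, and in 0 above, beside 16.3% of all genes below and 15.2% above. Ccr7, which guides naive T cells, B cells and mature dendritic cells to lymph nodes (chromosome 11, 99144196 to 99155077), had scaled read counts of 2694, 1472 and 3042 in ctrl and 1355 and 1372 in IR. The IR libraries were nearly equal, and ctrl replicate 2 was close above them. Ccr7 had a log2 fold change of -0.75 ± 0.25 (SE, adjusted p = 0.155 by limma) and passed with array weights (-0.93, limma adjusted p = 0.0414). Ctrl replicate 2 was also the ctrl library with the lowest sum of B cell markers (5963, against 9632 and 10411). It was not the lowest in T cell markers (5784, 5172 and 5110 in ctrl replicates 1, 2 and 3). The part of either cell type in the Ccr7 values was not tested.

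Cxcr5, the receptor that takes B cells into follicles, was 530, 360 and 807.5 in ctrl and 479 and 307 in IR (log2 fold change -0.48 ± 0.32, SE; limma adjusted p = 0.510). Its ligand gene Cxcl13 was listed at 0 in ctrl replicates 1 and 2, was 3.6 in ctrl replicate 3 and was 29.9 and 81.7 in IR. Both IR libraries were above ctrl at a low level, and the log2 fold change of 4.93 ± 1.86 (SE, adjusted p = 0.201 by limma) became 2.45 with a pseudocount of 10. Ccr6, a receptor of B cells and of interleukin-17-producing T cells, was 133, 39.3 and 92 in ctrl and 54.2 and 13.4 in IR (log2 fold change -1.49 ± 0.78, SE; limma adjusted p = 0.372). IR replicate 2 was the lowest library and IR replicate 1 lay within the ctrl range.

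Ccr4, a receptor of regulatory and type 2 helper T cells, was 28.7, 29.2 and 48.2 in ctrl and 23.4 and 5 in IR (log2 fold change -1.55 ± 1.12, SE; limma adjusted p = 0.549). Of its ligands, Ccl22, made by dendritic cells and macrophages (chromosome 8, 94745590 to 94751699), was 297, 169 and 321 in ctrl and 336 in IR replicate 1 but 28.5 in IR replicate 2. Ccl22 thus sat at the ctrl level in 1 IR library and far below it in the other: over all libraries it had a log2 fold change of -1.35 ± 1.01 (SE, adjusted p = 0.606 by limma), which was -3.10 without IR replicate 1 (0.00118) and 0.41 without IR replicate 2 (0.804). Ccl17, the other ligand, was 56.7, 6.4 and 40.2 in ctrl and 29.9 and 41.2 in IR, within the ctrl range (log2 fold change 0.47 ± 1.04, SE; limma adjusted p = 0.873). Xcr1, the receptor of the dendritic cells that cross-present antigen, was 20.3, 22.8 and 14.5 in ctrl and 4.7 and 0 in IR (log2 fold change -3.06 ± 1.68, SE; limma adjusted p = 0.401). Its ligand gene Xcl1, expressed by NK and CD8 T cells, was 33, 38.4 and 27 in ctrl and 40.2 and 10 in IR (log2 fold change -0.65 ± 1.01, SE; limma adjusted p = 0.808). Clec9a, a further marker of the same dendritic cells, was 107, 51.1 and 71.5 in ctrl and 71 and 36.1 in IR, so its groups overlapped.

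Cxcr4, the receptor that holds leukocytes in marrow and marks aged neutrophils, was the most abundant receptor per kilobase in ctrl. Its scaled read counts were 2246, 2215 and 3287 in ctrl and 2729 and 3609 in IR (log2 fold change 0.31 ± 0.21, SE; limma adjusted p = 0.532). IR replicate 1 lay within the ctrl range. Cxcr3, which effector T and NK cells use, was 71, 22.8 and 118 in ctrl and 57.9 and 51.3 in IR, and its ligand gene Cxcl10, induced by interferons, was 49.8, 87.7 and 54 in ctrl and 23.4 and 79.8 in IR. Neither differed beyond the spread of the libraries (log2 fold change -0.08 ± 0.74 for Cxcr3 and -0.50 ± 0.73 for Cxcl10, SE; limma adjusted p = 0.970 and 0.795). Cxcr6, a receptor of resident T cells, was 80.4, 6.4 and 40.1 in ctrl and 99.1 and 21 in IR, and its ligand gene Cxcl16 was 117, 205 and 169 in ctrl and 139 and 245 in IR. In both genes the groups overlapped, and Cxcl16 had a log2 fold change of 0.21 ± 0.43 (SE, adjusted p = 0.862 by limma). Ccr9, a receptor of gut-homing T cells and plasmacytoid dendritic cells, was 320, 411 and 290.5 in ctrl and 314 and 556.5 in IR (log2 fold change 0.31 ± 0.32, SE; limma adjusted p = 0.693). Siglech, a marker of plasmacytoid dendritic cells, was 955, 556 and 669 in ctrl and 714 and 853 in IR.

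The remaining members were low. Ccr8, a receptor of regulatory T cells, was 11.8, 2.7 and 8.7 in ctrl and 45.8 and 2.5 in IR (log2 fold change 0.73 ± 1.67, SE; limma adjusted p = 0.878). Cxcl17, a chemokine of mucosal epithelium, was listed at 0 in ctrl replicate 1, was 63.9 and 8 in the other ctrl libraries, and was 148 and 46.2 in IR (log2 fold change 3.33 ± 1.43, SE; limma adjusted p = 0.278). Its log2 fold change became 1.99 with a pseudocount of 10, 1.79 without ctrl replicate 1 and 4.80 without ctrl replicate 2, and its groups overlapped. Cxcl14, a chemokine of epithelium and stroma, was 12.6, 0 and 30.7 in ctrl and 14.9 and 0 in IR (log2 fold change -0.92 ± 2.09, SE; limma adjusted p = 0.877). Cxcl15 and Cxcl17 were both highest in IR replicate 1, the library with the highest sum of lung epithelial markers (118523), and the part of epithelial RNA in their values was not tested.

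The IR libraries moved apart in many members. Relative to the ctrl mean on the log2(value + 1) scale, 16 of the 38 members tested were above 0 in both IR libraries, 5 were below 0 in both, and 17 had opposite signs. These signs were not counted over all genes, so the counts do not set the members apart from other genes. Of the 10 members with a positive fold change and an unadjusted p under 0.05, 7 changed more in IR replicate 2. The widest gaps were in Ccr3 (-3.49 in IR replicate 1 and 1.34 in IR replicate 2), Cxcl14 (1.07 and -2.92), Ccr8 (2.60 and -1.14) and Ccl22 (0.41 and -3.10). Over the members tested, the median absolute log2 difference between the IR libraries was 0.921, against 0.463 to 0.524 between pairs of ctrl libraries. Over all genes tested the same measure was 0.5996 between the IR libraries and 0.383 to 0.5075 between pairs of ctrl libraries.

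**Figure D4:**
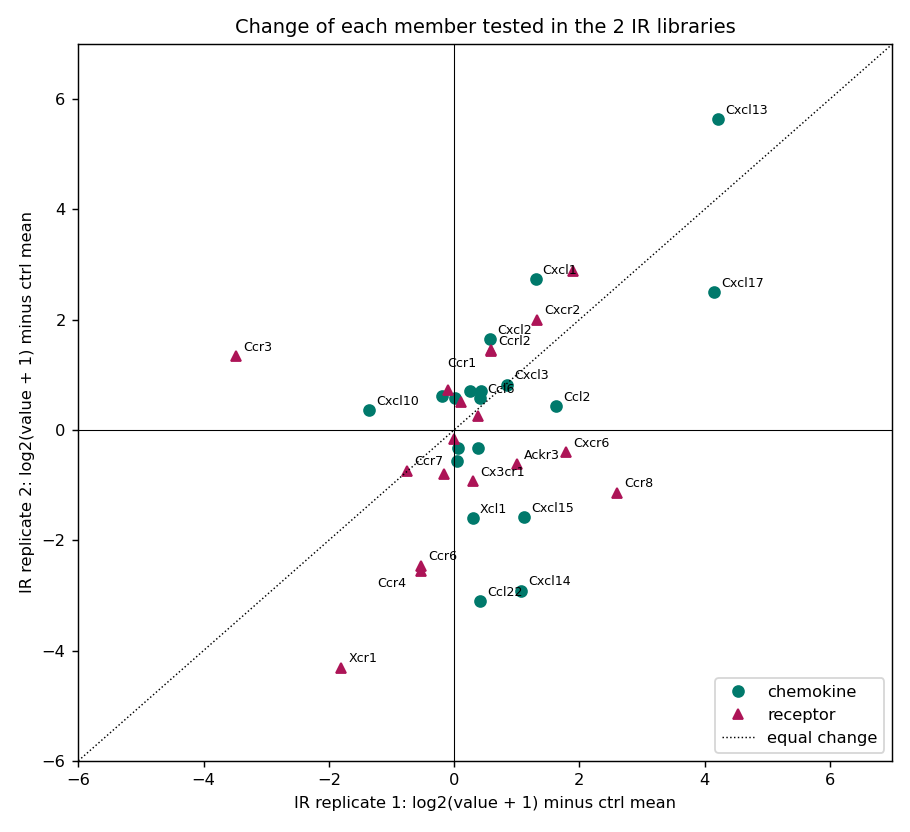
Change of 37 of the 38 members tested in IR replicate 1 (horizontal axis) and IR replicate 2 (vertical axis), as log2(value + 1) minus the ctrl mean. Circles are chemokines and triangles receptors, the dotted line marks equal change, and names are given for members with an unadjusted p under 0.05 or a gap of more than 1.2. The upper right of the plot holds the 16 members above 0 in both libraries, and 16 of those shown have opposite signs.

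Per kilobase of exon, the most abundant members in ctrl were Ccl6, Cxcl2 and Ccl5. Scaled read counts per kilobase of protein-coding exon (GENCODE vM21, GRCm38) were 5827 ± 1262 (SD, n = 3) for Ccl6, 4099 ± 999 for Cxcl2 and 3394 ± 507 for Ccl5. The ranges of neighbours in this order overlapped. Below a gap came Cxcr4 (1428 ± 338), Ccr7 (1215 ± 417) and Ccl3 (1188 ± 142), whose ranges also overlapped, and then Ccrl2 (726 ± 164), Ccr1 (590 ± 169), Ccl4 (522 ± 7.90) and Cxcr2 (449 ± 155). In IR the mean level per kilobase was 9275 for Cxcl2, 8093 for Ccl6 and 2875 for Ccl5, and those of Ccrl2, Cxcr2 and Ccr1 were 1514, 1393 and 1205, beside 689 for Ccr7. The ligand Cxcl2 was thus about as abundant as Ccl6. It was far above Cxcl1 (34.0 ± 9.47 in ctrl) and Cxcl3 (205 ± 30.4), which also encode ligands of CXCR2.

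Members that lie side by side in the genome did not share 1 pattern. Chromosome 9 held 12 members. There Ccr9, Cxcr6, Xcr1, Ccr1, Ccr3 and Ccr2 lie between 123678439 and 124113557 and had log2 fold changes of 0.31, 0.69, -3.06, 1.01, -1.07 and 0.32. Chromosome 11 held 9 members, among them Ccl5, Ccl9, Ccl6, Ccl3 and Ccl4 between 83525778 and 83664683, with log2 fold changes of -0.26, 0.03, 0.49, 0.30 and -0.13. Members related in sequence, such as Cxcl1, Cxcl2 and Cxcl3, could have had reads assigned to one another, as the treatment of multiply mapped reads is not described. A gene on the opposite strand overlaps 12 of the 41 members.

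Of 42 other genes of chemokine signalling and processing, 40 were tested, and 0 rose or fell (limma, adjusted p under 0.05), with 8 at an unadjusted p under 0.05. The shares over all genes tested were 1.5% and 15%. Their median log2 fold change was 0.16, with 24 positive and 16 negative, beside -0.05 over all genes tested. Rac2, the haematopoietic GTPase that drives actin remodelling downstream of chemokine receptors, was 3234, 3666 and 4682 in ctrl and 5629 and 6413 in IR (log2 fold change 0.66 ± 0.20, SE; limma adjusted p = 0.0942). Gnai2, the inhibitory G protein subunit that couples to these receptors, was 10138, 9776 and 10945 against 12265 and 17609 (0.52 ± 0.18, SE; limma adjusted p = 0.176). Arrb2, an arrestin that turns receptors off, was 823, 980 and 1040 against 1466 and 1394 (0.60 ± 0.22, SE; limma adjusted p = 0.181). Rgs18, a regulator of G protein signalling in myeloid cells and platelets, was 94.6, 140 and 72.9 against 194 and 262 (1.18 ± 0.46, SE; limma adjusted p = 0.218). In these 4 genes, named for their small p, the IR libraries lay above all ctrl libraries. Of the 40 tested, the IR libraries lay above ctrl in 14 and below in 4, beside 15.2% and 16.3% of all genes. Among those below were Grk3 (-0.77, limma adjusted p = 0.236) and Elmo1 (-0.50, limma adjusted p = 0.254). Of the platelet chemokines, Ppbp (CXCL7) lay between 0 and 9.3 in every library, and Pf4 (CXCL4) was 60.9, 1.8 and 16 in ctrl and 0 and 45.4 in IR.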

How the data were processed

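RNA-seq libraries of CD45-sorted lung cells were made with the SMARTer Stranded Pico Input kit for total RNA, per the labels' protocols. HISAT2, HTSeq and mm10 are named without roles or versions, per the submitters' processing notes. The signal values deposited by the authors are read counts per gene scaled between libraries. The sources used here do not describe the scaling. They have 1 decimal and step in near multiples of 1 value per library that drift with height, so they could not be turned back into whole reads; no count test was run, and counting error is unknown. Dividing totals by the smallest step gives roughly 8133794 to 10608461 reads per library.

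Rows with at least 10 in at least 2 of 5 libraries (12777) entered a limma fit on log2(value + 1), with a trend on the mean, robust estimation and no covariate. Versions were limma 3.58.1, statmod 1.5.0 and R 4.3.3. P-values are two-sided, adjusted by Benjamini-Hochberg over all rows tested and called under 0.05. Fold changes on this scale understate the change of low genes. For 3 against 2 libraries the smallest p of an exact permutation test is 0.1. The fit was tested on simulated data that gave all 5 libraries the spread of ctrl. That simulation did not cover the wider gap seen between the IR libraries. Libraries were grouped by the treatment label, with replicate numbers in accession order.

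The members and lists were chosen with earlier results of these data known. Full statistics were due for members with an unadjusted p under 0.05, the 3 most abundant of each role and the 5 largest fold changes each way, and in the pathway list for called genes and the 4 with the smallest p. Of the tested members, 1 is not reported here, though counts and medians over the members include it. Other members and marker genes named beside them were added as context. GENCODE vM21 (GRCm38) matched all 41 members. Alternatives covered scaling, filters, pseudocounts, the limma settings and leaving out each library.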

Additional observations from a re-analysis of the deposited data

How the results depend on the processing

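No paired analysis was possible because the labels give no replicate numbers. The count of 2 called members became 1 with robust estimation off and 0 with no mean trend (0 of all 12777 genes called, 5 members at an unadjusted p under 0.05). It ranged from 0 to 6 with 1 library left out: 0 without IR replicate 2, 1 without ctrl replicate 1 or 2, 2 without ctrl replicate 3 and 6 without IR replicate 1. Of all genes, 0.153%, 0.185% and 0.768% were called without ctrl replicates 1, 2 and 3. Where 1 IR library is left, it is assumed to vary like the other libraries. The 6 were Ccl22, Ccr1, Ccrl2, Cxcl1, Cxcl2 and Cxcr2, and 8.13% of all genes were called in that run. With a pseudocount of 10 there were 3 calls, and with array weights 2, Ccr7 and Ccrl2. The count of members without overlap ranged from 15 to 27 with 1 library left out and was 27 of 36 without IR replicate 1 and 25 of 37 without IR replicate 2, beside 66.4% and 56.9% of all genes, since fewer libraries have to be separated. The member median ranged from -0.048 (without ctrl replicate 2) to 0.38 with 1 library left out and from 0.14 to 0.30 under the other alternatives. Scaling to totals moved the median of all genes from -0.05 to -0.17 and left the same 2 members called.

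Of the 37 members tested and reported singly, 21 kept their sign in every alternative in which they were tested. Ccl9 turned to -0.090 after scaling to totals, and Ackr3 to -0.22 with a pseudocount of 10 and -0.30 with array weights. With 1 library left out, log2 fold changes that changed sign ranged as follows: Ackr3 -1.31 to 1.36, Ccl4 -0.32 to 0.060, Ccl5 -0.57 to 0.046, Ccl9 -0.32 to 0.39, Ccl17 -0.43 to 1.05, Ccl22 -3.10 to 0.41, Ccr3 -3.49 to 1.34, Ccr9 -0.10 to 0.72, Cx3cr1 -0.93 to 0.31, Cxcl10 -1.36 to 0.36, Cxcl14 -2.92 to 1.07, Cxcl15 -1.59 to 1.12, Cxcl16 -0.20 to 0.62, Cxcr3 -0.74 to 0.42, Cxcr6 -0.41 to 1.78 and Xcl1 -1.61 to 0.30. The causes were not tested. Depth limits the members with scaled read counts under 100, where 1 read is worth 0.7 to 0.9.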
